A study of Mus musculus with 8 samples.

Results

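The genes described here encode the proteins of the cytosolic ribosome. They were chosen by a rule on the symbol, with earlier results of these data known. It takes names that start with Rpl or Rps and a digit, with Rpsa, Rplp0, Rplp1 and Rplp2, and without the S6 kinases and pseudogenes. The rule found 86 of the 18770 genes of the deposited table, 51 of the large and 35 of the small subunit. Of these, 77 are standard ribosomal protein genes (46 large, 31 small). The other 9 are the paralogs Rpl3l, Rpl7l1, Rpl22l1, Rpl36al, Rpl39l and Rps27l, the retrogene copies Rps27rt and Rps23rg1, and Rps19bp1, whose product binds Rps19 and is not a ribosomal subunit.

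The study asked how alpinetin, a plant flavonoid, affects hair follicle regeneration. Wildtype male C57BL/6 mice were depilated on the back and treated on the skin. Their sample labels give an age of 7 to 8 weeks, and the study's methods give a lower age range at depilation. The VC group received vehicle, 20 µl of 65% ethanol, and the AP group received alpinetin at 3 mg/ml in the same volume and solvent, with n = 4 in each group. On day 4 after depilation, dermis with its hair follicles was separated from the interfollicular epidermis, and messenger RNA of the whole tissue was selected by oligo-dT and sequenced. The comparison of AP with VC reads what differs between treated and vehicle skin at this day.

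A ribosome joins a small subunit, which reads the messenger RNA, to a large subunit, which forms the peptide bond; nearly every subunit protein is present as a single copy, and the genes are among the most strongly expressed in dividing cells. Their messenger RNAs begin with a terminal oligopyrimidine tract (TOP), through which mTOR and Larp1 set how much of the pool is translated. Growth of a new hair shaft depends on rapidly dividing matrix cells with a high demand for ribosomes, and mice with reduced Rps19 or Rps20 have dark skin through p53 activity in keratinocytes.

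The libraries held 7264151, 6833615, 6479827 and 6454563 reads in VC.1, VC.2, VC.3 and VC.4 and 8507783, 10853773, 11190113 and 8863517 in AP.1, AP.2, AP.3 and AP.4, summed over the listed genes. Every AP library was deeper than every VC library. The 13 mitochondrially encoded genes took 54.3%, 44.9%, 42.1% and 52.3% of the reads in the VC libraries and 11.1%, 7.85%, 5.32% and 10.3% in the AP libraries. A gene with 3 reads, taken as the floor, had between 4.10 and 5.63 normalized counts in VC and between 1.49 and 2.18 in AP. Values are the deposited normalized counts, that is reads divided by 1 size factor per library, and fold changes are AP over VC on log2(normalized count + 1). Values of single libraries are listed in the order of their numbers, 1 to 4.

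The share of ribosomal protein reads depended on what it was taken of. The 86 genes held 7.90%, 6.18%, 6.76% and 5.27% of all reads in the VC libraries and 7.51%, 7.64%, 7.90% and 9.28% in the AP libraries. The group means were 6.53% ± 1.10 in VC and 8.08% ± 0.815 in AP (SD, n = 4), so the share of all reads was higher in AP on average, with VC.1 inside the AP range. Of the reads that were not mitochondrially encoded, the same genes held 17.3%, 11.2%, 11.7% and 11.04% in VC and 8.45%, 8.29%, 8.34% and 10.3% in AP. On this scale every VC library lay above every AP library, with means of 12.8% ± 3.0 and 8.86% ± 0.997; without VC.1 the VC mean was 11.3% ± 0.326 (n = 3). The 95% Wilson intervals of the single shares reached at most 0.0196 percentage points to each side for all reads, and 0.0407 without the mitochondrially encoded genes; these and the floor cover the error of counting alone, because PCR copies of 1 molecule cannot be recognized here.

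**Figure D1:**
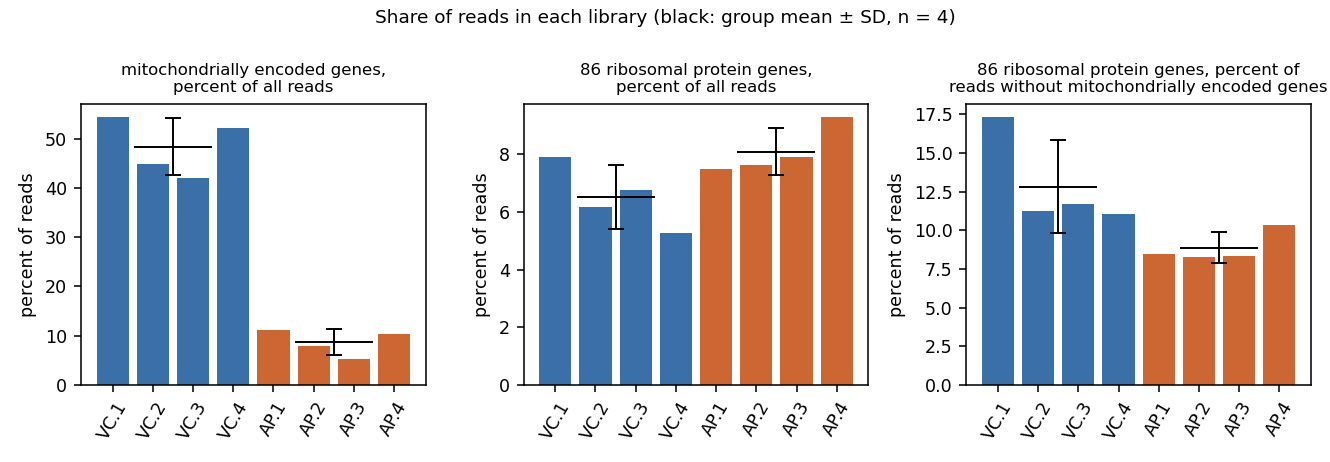
Percent of reads in each library on the mitochondrially encoded genes and on the 86 ribosomal protein genes, the latter of all reads and of reads without the mitochondrially encoded genes; bars are libraries, and black lines are group means with SD (n = 4). The ribosomal protein share had a higher mean in AP (8.08%) than in VC (6.53%) of all reads and a lower mean (8.86% against 12.8%) without the mitochondrially encoded genes.

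VC.1 stood apart from the other VC libraries. The median deviation of the 77 standard genes from their mean over the 8 libraries was 0.82 on the log2 scale in VC.1, against 0.10, 0.06 and 0.10 in VC.2 to VC.4. It was -0.33, -0.36 and -0.40 in AP.1 to AP.3 and 0.02 in AP.4, which stood above the other AP libraries and below VC.2 to VC.4. VC.1 was the highest of the 8 libraries for all 77 standard genes and for 80 of the 86 members, and AP.4 was the highest AP library for 82. Both subunits had this order: large subunit genes deviated by 0.76 in VC.1 and 0.03 in AP.4, and small subunit genes by 0.88 and -0.01. In VC.1, genes of every function that averaged 50 or more normalized counts, with a longest transcript under 1000 nt, had a median deviation of 0.48, and those from 4000 nt had -0.20. VC.2 to VC.4 had 0.14, 0.08 and 0.12 under 1000 nt, and -0.11, -0.03 and -0.17 from 4000 nt. The AP libraries had the opposite order, with -0.11, -0.27, -0.38 and -0.09 under 1000 nt. From 4000 nt they had 0.04, 0.19, 0.22 and 0.11.

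The tissue label was checked on lists of marker genes, none of which was at the floor in all libraries. By limma with an adjusted p under 0.05, 6.33% of all genes tested were higher in AP and 4% were lower. An unadjusted p under 0.05 was found in 30.3% of all genes. Dermal fibroblast markers were abundant, with Col1a1 at a mean of 45951 normalized counts, and 0 of 7 passed the limma test in either direction (median log2 fold change 0.41; 1 gene had an unadjusted p under 0.05). The interfollicular epidermis had been removed, yet 7 of 8 suprabasal epidermis markers rose in AP. Their summed counts were 5539, 12183, 8216 and 5291 in the VC libraries and 42037, 39832, 116364 and 166570 in the AP libraries, with Krt10 the most abundant. Of the basal keratinocyte markers, 3 of 6 rose. In melanocyte markers 3 of 5 fell, and in dermal papilla markers 2 of 5 fell. In the red blood cell list, 1 of 4 genes rose. Without VC.1, 6 suprabasal and 1 basal keratinocyte markers rose, 1 melanocyte and 2 dermal papilla markers fell, and 0 red blood cell genes passed by limma in either direction. No gene passed in either direction among 6 hair follicle stem cell, 6 hair matrix, 9 skeletal muscle, 5 adipocyte, 5 leukocyte and 4 sebaceous gland markers; their medians were 0.27, -0.48, -1.81, -0.32, -0.20 and 0.01, and 0, 1, 8, 1, 3 and 0 genes had an unadjusted p under 0.05. By edgeR and voom 0 genes of these lists and of the fibroblast list passed, and by DESeq2 1 leukocyte gene did. The part of these tissue differences in the values of the ribosomal protein genes was not tested.

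All 86 members passed the filter on low counts, as 15964 of the 18770 genes did. By limma with an adjusted p under 0.05, 9 of the 86 members were lower in AP (10.5%), where 4% of all genes tested were lower. In the other direction 0 members passed, against 6.33% of all genes; edgeR, DESeq2 and voom also gave 0, where 6.28%, 10.5% and 4.48% of all genes were higher, and 44 members had an unadjusted p under 0.05, all with negative fold changes, where 30.3% of all genes had one in either direction. The 9 were 4 of 51 large subunit members (Rplp2, Rpl38, Rpl28 and Rpl13a) and 5 of 35 small subunit members, of which Rps15, Rps21 and Rps19bp1 are described here. In bulk tissue, fewer cells of a type and less RNA per cell cannot be told apart. A p-value here sets the difference between the groups against the spread between libraries within them. With the study's thresholds, an unadjusted p under 0.01 and a fold over 1.5, 18 members were lower by limma, where 5.32% of all genes were, and 32 by DESeq2, the study's tool, where 7.35% were. Both fits called more genes lower than the study reported, so these counts are not those of the study's own analysis.

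The subunits had almost the same central value. The median log2 fold change was -0.55 over large and -0.51 over small subunit members, against 0.06 over all genes tested, and 83 of the 86 fold changes were below 0. Among standard genes the medians were -0.54 and -0.52, all 77 were below 0, and they ranged from -1.10 (Rplp2) to -0.12 (Rps15a). Without VC.1, 74 of the 77 were below 0, and without VC.1 and the trend on the longest transcript, 61 were. The 8 libraries did not overlap, with every VC value above every AP value, in 35 members (20 large, 15 small), or 40.7%, where 8.91% of all genes had that order; 0 members had the opposite order, where 10.3% of all genes had it. Scaling by total counts moved the median of all genes to 0.90 and turned the subunit medians positive, to 0.32 and 0.36, which are -0.58 and -0.54 relative to all genes. With it 10 of the 86 fold changes stayed below 0, among them those of Rplp2, Rpl38, Rpl28, Rpl13a, Rps15, Rps21 and Rps19bp1. In this order they shrank to -0.23, -0.19, -0.09, -0.15, -0.11, -0.09 and -0.04, with limma adjusted p from 0.393 to 0.901. With that scaling 21 members (14 large, 7 small) were higher, where 54.2% of all genes were, and 0 were lower, with 28 at an unadjusted p under 0.05 in either direction, where 61.7% of all genes were.

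**Figure D2:**
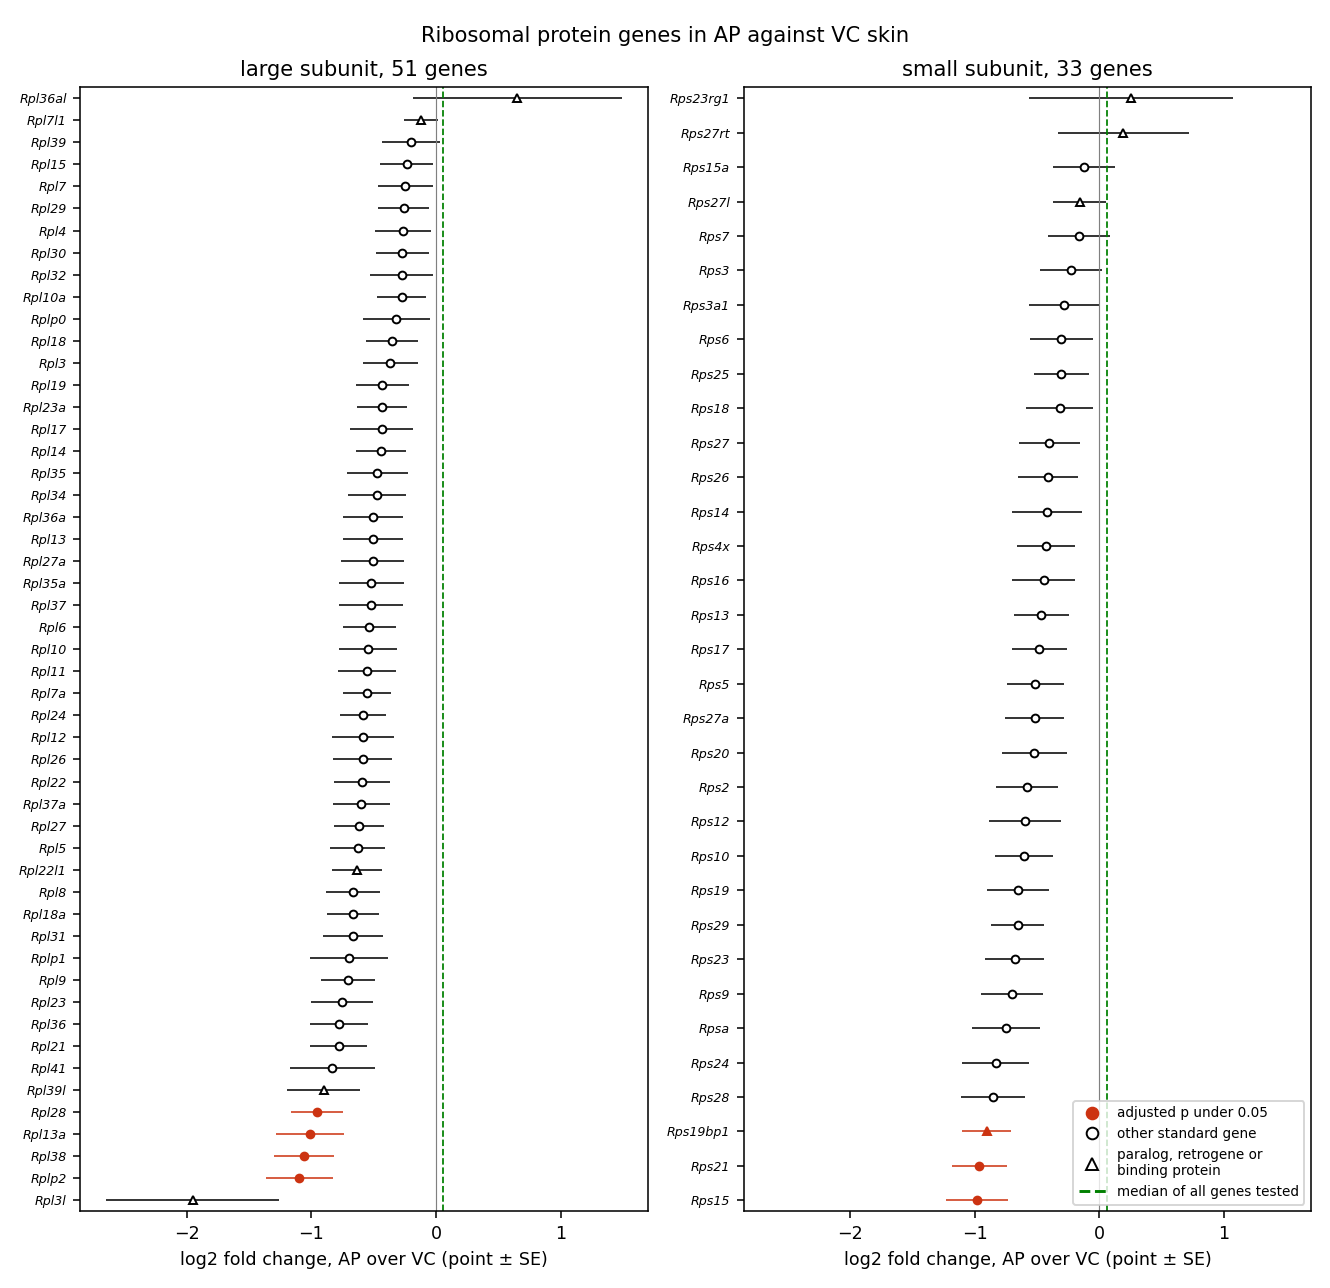
Log2 fold change (AP over VC, point ± SE) of 84 of the 86 genes by subunit, with the median of all genes tested as a dashed line at 0.06. Filled symbols are the 7 genes drawn with an adjusted p under 0.05, triangles are the 9 paralogs, retrogenes and binding protein, and the standard genes drawn all lie below 0 with the deposited size factors, whereas scaling by total counts puts the subunit medians above 0.

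Single libraries moved the count. Without VC.1, 5 members were lower (Rplp2, Rpl38, Rpl28, Rps15 and Rps19bp1), where 1.63% of all genes were, and the medians moved to -0.38 for large and -0.30 for small subunit members. Without AP.2 the count was 1, where 0.971% of all genes were lower, and without AP.4 it was 4, where 0.871% were. Without AP.3 no member passed by limma (29 had an unadjusted p under 0.05, where 22.1% of all genes had), and 0.589% of all genes did. DESeq2 on the recovered reads called 36 members lower (22 large, 14 small), where it called 8.53% of all genes lower. By edgeR 11 members were lower, by voom 17 and with upper-quartile factors 17, where 4.46%, 4.53% and 5.59% of all genes were.

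Ribosomal protein transcripts are short, and short transcripts were lower in AP as a class. The longest transcript had a median length of 1100 nt over the members and 3171 nt over all genes tested. Across the 11257 genes with a mean of at least 50 normalized counts, Spearman's rho of fold change with length was 0.401, and across all 15964 genes tested it was 0.245, a description across genes, which are not independent replicates. Over genes of every function the median fold change was -0.16 under 1000 nt, -0.23 from 1000 to 2000 nt, -0.01 from 2000 to 4000 nt and 0.27 from 4000 nt. The members' medians in the same classes were -0.55 (37 genes), -0.51 (35), -0.52 (12) and -0.48 (2), below the class in each case. These classes use the longest annotated transcript, which may not be the one expressed. By the median length of a gene's transcripts, the median was 634.5 nt over the members and 1442 nt over all genes tested. Classes by that length were not compared, so members in the long classes may have short transcripts. With the trend on the longest transcript removed in each library, the medians were -0.33 for large and -0.31 for small subunit members. Then 3 members (Rpl38, Rps21 and Rpl28) were lower, where 3.33% of all genes were. With VC.1 also left out, the medians were -0.22 and -0.17, and 2 members were lower, where 1.44% of all genes were. The trend on the median length of a gene's transcripts took away less: the medians were -0.48 and -0.44, and 7 members were lower, where 3.87% of all genes were. What made short transcripts lower was not tested. With reads drawn down to 1 depth without the mitochondrially encoded genes, the members had a median of -0.49 against 0.09 over all genes, and 10 were lower, where 3.12% of all genes were. Scaling by totals without the mitochondrially encoded genes gave -0.48 against 0.10, and 12 members were lower, where 3.38% of all genes were.

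Other assemblies encoded in the nucleus were compared for position only. The median fold change was -0.44 over 77 mitochondrial ribosomal protein genes, -0.29 over 44 proteasome genes and -0.55 over 78 respiratory chain genes, against -0.52 over the members. Of these, 17 (22.1%), 6 (13.6%) and 24 (30.8%) were lower by limma, where 10.5% of the members were. Without VC.1 the shares were 9.09%, 4.55% and 10.3% against 5.81%, with voom 23.4%, 11.4% and 34.6% against 19.8%, and with DESeq2 29.9%, 18.2% and 50% against 41.9%. The place of the members among these lists depended on the fit, and no difference between the lists was tested. Scaling by total counts moved the medians of these lists to 0.43, 0.58 and 0.32.

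The acidic stalk of the large subunit, which recruits elongation factors, is built of Rplp0 as its base and dimers of Rplp1 and Rplp2. Coordinates are those of mm10. Rplp2 (ENSMUSG00000025508, chr7:141447370-141451585) had 18023, 8527, 9670.1 and 8297 normalized counts in the VC libraries against 5254, 4626, 4133 and 5874 in the AP libraries. All VC values lay above all AP values, and VC.1 was far above the rest. The mean fell from 11129 ± 4635 to 4972 ± 756 (SD, n = 4), a log2 fold change of -1.10 with an SE of 0.27 and an adjusted p of 0.0297. Without VC.1 the fold change was -0.84 (adjusted p = 0.0391), and over 23 alternatives the adjusted p ranged from 0.000669 to 0.393 and was under 0.05 in 17. Its partner Rplp1 (ENSMUSG00000007892, chr9:61913284-61914542) had 35906.5, 16297, 16649 and 15748 normalized counts in the VC libraries against 11729, 12107, 10518.5 and 14780.4 in the AP libraries. The groups did not overlap here either, but the difference of -0.70 did not pass by limma (adjusted p = 0.158), and DESeq2 called it lower (0.0407). Rplp0 (ENSMUSG00000067274, chr5:115559467-115563727), the base, had 23362, 17677, 13729.6 and 21373 normalized counts in the VC libraries against 13988, 13962, 14578 and 17689 in the AP libraries. Its groups overlapped, since VC.3 lay below all AP libraries, and the difference was -0.32 with an SE of 0.27 and an adjusted p of 0.451. Whether the stalk proteins differed from one another in their change was not tested.

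Rpl38, a small protein of the large subunit needed for the translation of patterning genes in the embryo, lies at chr11:114668524-114672331 (ENSMUSG00000057322). It had 9703, 4900.3, 5391 and 5072 normalized counts in the VC libraries against 3116, 2668, 2378 and 3489.7 in the AP libraries. The lowest VC library was above the highest AP library, AP.4. The mean fell from 6266 ± 2299.9 to 2913 ± 489.9, a log2 fold change of -1.06 with an SE of 0.24 and an adjusted p of 0.0237. Without VC.1 the fold change was -0.83 (adjusted p = 0.0352), and over 23 alternatives the adjusted p ranged from 0.000605 to 0.430 and was under 0.05 in 20. Rpl28 (ENSMUSG00000030432, chr7:4792874-4795066), a large subunit protein that budding yeast lacks, had 12155, 7834, 8021 and 7376 normalized counts in the VC libraries against 4422, 4193, 4246 and 5049.6 in the AP libraries. Its AP libraries were close to one another, and all lay below the VC libraries. The mean fell from 8846 ± 2222 to 4477 ± 394, a log2 fold change of -0.96 with an SE of 0.21 and an adjusted p of 0.0208. Without VC.1 the fold change was -0.79 (adjusted p = 0.0337), and over 23 alternatives the adjusted p ranged from 4.80e-05 to 0.695 and was under 0.05 in 19. With the trend on the longest transcript removed, Rpl38 and Rpl28 had fold changes of -0.84 and -0.69 (adjusted p = 0.0311 and 0.0449), while Rplp2 missed the threshold (-0.83, 0.0513); with the trend on the median length removed, all 3 passed.

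Rpl13a (ENSMUSG00000074129, chr7:45125558-45128761), whose introns hold small nucleolar RNAs, had 597, 339.9, 397 and 332 normalized counts in the VC libraries against 168, 133, 234 and 303 in the AP libraries. The groups did not overlap, and AP.4 came close to VC.4. The log2 fold change was -1.01 with an SE of 0.27 and an adjusted p of 0.0399, and 0.0909 was the adjusted p without VC.1, within a range from 0.0126 to 0.659 over the alternatives. Its level per kilobase, 299 normalized counts, was far under the 33501 of Rplp1, and 57.4% of the 50-base words of its transcripts occur in other annotated genes, so its count is uncertain. Its exons also overlap other annotated genes over 35.4% of their length, and the strand of the reads is not stated.

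Among small subunit members, Rps15 (ENSMUSG00000063457, chr10:80292453-80294114), a protein of the subunit's head that its export from the nucleus requires, had 17870.5, 9626, 10152 and 9272 normalized counts in the VC libraries against 6119, 5268, 4963 and 6638 in the AP libraries. The VC libraries were all above the AP libraries, with VC.1 highest. The mean fell from 11730.2 ± 4109 to 5747 ± 769.7, a log2 fold change of -0.98 with an SE of 0.25 and an adjusted p of 0.0333. Without VC.1 the fold change was -0.76 (adjusted p = 0.0486), and over 23 alternatives the adjusted p ranged from 0.000771 to 0.644 and was under 0.05 in 17. Rps21 (ENSMUSG00000039001, chr2:180257377-180258445), a small subunit protein that takes part in the maturation of its ribosomal RNA, had 6527, 5069, 3805.5 and 4189 normalized counts in the VC libraries against 2628, 1967, 2152 and 3264 in the AP libraries. VC.1 and VC.2 were the high libraries, and VC.3, the lowest of its group, was still above AP.4. The mean fell from 4897 ± 1208 to 2503 ± 579, a log2 fold change of -0.96 with an SE of 0.22 and an adjusted p of 0.0245. Without VC.1 the fold change was -0.82 (adjusted p = 0.0526), and over 23 alternatives the adjusted p ranged from 0.00113 to 0.682 and was under 0.05 in 18.

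The calls also depended on other libraries. With each of the 8 libraries left out in turn, the adjusted p was under 0.05 in 6 fits for Rpl38, Rpl28 and Rps19bp1, in 5 for Rplp2, Rps15 and Rps21, and in 3 for Rpl13a. The highest adjusted p in these fits was 0.0824 for Rpl38, 0.0719 for Rpl28, 0.0786 for Rps19bp1, 0.0969 for Rplp2, 0.105 for Rps15, 0.0837 for Rps21 and 0.101 for Rpl13a.

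**Figure D3:**
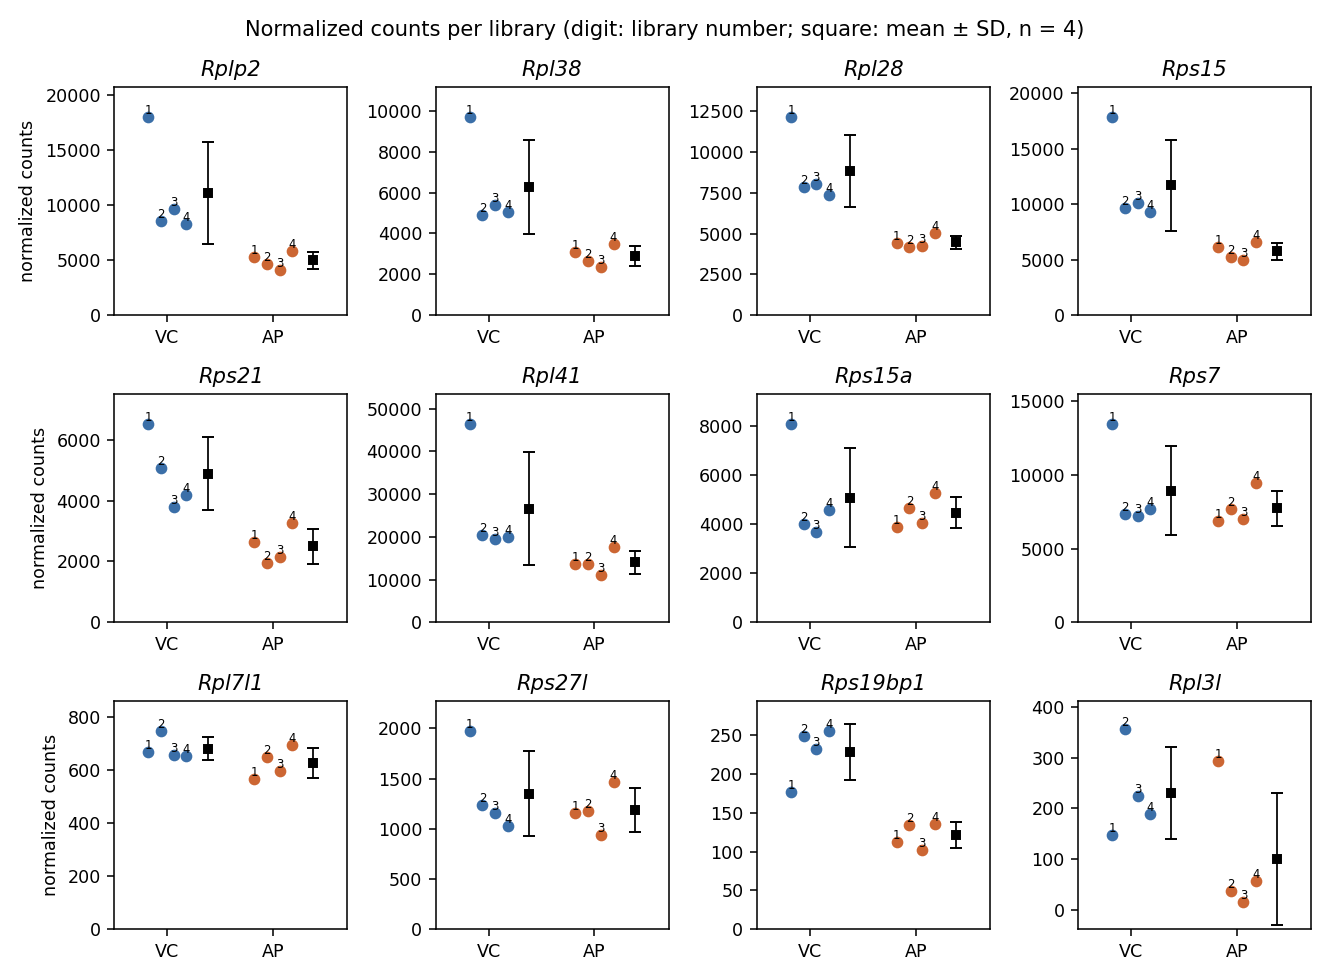
Normalized counts of 12 members in each library (points, numbered by library) with the group mean ± SD (squares, n = 4). In Rplp2, Rpl38, Rpl28, Rps15, Rps21, Rpl41 and Rps19bp1 every VC library lies above every AP library, and in Rps15a, Rps7, Rpl7l1, Rps27l and Rpl3l the groups overlap.

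The 3 most abundant members of each subunit missed the threshold by limma, as given above for Rplp1 and Rplp0 of the large subunit. Rpl41, the shortest protein of the ribosome, had 46395, 20408, 19495 and 19858 normalized counts in the VC libraries against 13681, 13708, 11137 and 17496 in the AP libraries. VC.1 held more than any other library, and VC.2 to VC.4 were close to one another and above the AP libraries. The difference of -0.83 (SE 0.34) had an adjusted p of 0.126 by limma and 0.0220 by DESeq2. Of the small subunit, Rps12, Rpsa and Rps2 had the highest means. Rpsa, also known as a laminin receptor, had 30242, 18512, 16164 and 18941 normalized counts in the VC libraries against 12209, 11123, 11188 and 14142 in the AP libraries. Its groups did not overlap, with a log2 fold change of -0.75 with an SE of 0.27 and an adjusted p of 0.0931, and DESeq2 and voom called it lower (adjusted p = 0.00606 and 0.0495). Rps12 and Rps2 had -0.60 and -0.58 (adjusted p = 0.192 and 0.139); Rps12 overlapped between the groups and Rps2 did not. DESeq2 called Rps2 lower (0.0272) and did not call Rps12 (0.0550). Rps28 had a log2 fold change of -0.85 with an SE of 0.25 and an adjusted p of 0.0530 by limma; 8 of the 23 alternatives called it lower, including DESeq2 (0.00908), edgeR (0.0462) and voom (0.0481). Rps24 had -0.83 with an SE of 0.27 and an adjusted p of 0.0678 and passed in 2 alternatives, DESeq2 (0.00707) and voom (0.0462). Per kilobase of longest transcript, Rplp1 (33501 normalized counts), Rpl41 (29169) and Rps15 (15277) had the highest levels.

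Other standard genes had fold changes nearer to 0. Rps15a of the small subunit had 8093, 3991, 3685 and 4601 normalized counts in the VC libraries against 3892, 4674, 4045 and 5296 in the AP libraries. VC.1 was highest, VC.2 and VC.4 lay within the AP range and VC.3 below it. Its log2 fold change was -0.12 with an SE of 0.25 and an adjusted p of 0.773. Leaving out VC.1 made it 0.12. Rps7, which also binds Mdm2, had 13466.5, 7331, 7234 and 7706 normalized counts in the VC libraries against 6865, 7681, 7006 and 9455 in the AP libraries. Apart from VC.1 and AP.4, its libraries were almost level. The log2 fold changes of Rps7 and of Rpl39, a protein of the exit tunnel, were -0.16 with an SE of 0.25 and an adjusted p of 0.690 and -0.20 with an SE of 0.23 and an adjusted p of 0.586, and without VC.1 they were 0.05 and 0.01.

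To compare the members with one another, each library was also divided by its median level of the 77 standard genes, a scaling chosen after the data were seen. It puts the median of all genes at 0.58, or 0.37 without VC.1, so it says nothing about other genes. On this scale 1 member, Rplp2, was lower (-0.56, adjusted p = 0.0454), where 0.42% of all genes were lower. The adjustment ran over all 15964 genes tested, of which 3002 were higher on this scale. The scaling itself raised other genes, so this call depends on it. The shares of all genes on this scale are therefore no background for the members. By limma 0 members were higher, where 18.8% of all genes were, and 7 members had an unadjusted p under 0.05 in either direction, where 36.4% of all genes had; other tools were not run on this scale. After this scaling, Rplp2 had values of 10177, 7979.9, 9260.1 and 7720.3 in the VC libraries against 6611, 5935, 5437 and 5789 in the AP libraries. The AP libraries all stayed below the VC libraries, and VC.1 was no longer far apart. Without VC.1 the value was -0.48, which did not pass (adjusted p = 0.0640).

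The next in this order were Rpl38 (-0.52, adjusted p = 0.0531), Rps15 (-0.44, 0.0814), Rps21 (-0.43, 0.116) and Rpl28 (-0.42, 0.0910), leaving aside Rpl3l and Rpl13a. At the other end were Rps15a (0.42, 0.112), Rpl7l1 (0.42, 0.214), Rps27l (0.38, 0.157) and Rps7 (0.37, 0.124), leaving aside the 3 genes with few reads. Rps15a on this scale had values of 4569.7, 3735, 3529 and 4281 in the VC libraries against 4897, 5997, 5321 and 5219.9 in the AP libraries. Every AP library was above every VC library. The libraries did not overlap in 14 members with lower values in AP and in 11 with higher values. Of all genes, 0.99% and 25.9% had these orders. The scaling is centred on the members and shifted these shares, so they are no background for the 14 and 11 members. Without VC.1 the range over the standard genes was from -0.48 to 0.48, and by limma 0 members passed in either direction, with 12 at an unadjusted p under 0.05, where 32.5% of all genes were. By distance from the median of their subunit, 4 members lay over 3 scaled median absolute deviations away: Rpl3l (-7.76) and Rplp2 (-3.05) below, and Rpl36al (6.56) and Rps23rg1 (3.24) above, the last 2 with few reads.

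Rpl3l, a paralog of Rpl3 made in striated muscle, is at chr17:24727820-24736143 (ENSMUSG00000002500). It had 147, 358, 225 and 189 normalized counts in the VC libraries against 294, 36.7, 14.9 and 56.5 in the AP libraries. AP.1 was as high as the VC libraries, and AP.2 to AP.4 were far below them. The mean was 229.9 ± 90.9 in VC and 100.5 ± 130.0 in AP (SD, n = 4), and the log2 fold change of -1.95 (SE 0.69) did not pass (adjusted p = 0.0866). Without AP.1 it was -2.75 with an adjusted p of 0.00543, the lowest of the alternatives, which reached 0.359. With each library left out it ranged from -2.75 to -1.35, and by DESeq2 and edgeR it was -1.20 and -1.22. The 9 skeletal muscle markers summed to 53595, 75470 and 38473 normalized counts in VC.1 to VC.3, 43589 in VC.4, and 69055, 9946, 5977 and 12809 across the AP libraries. They had the same split of the AP libraries, and Acta1 was the most abundant, at a mean of 13225. All 9 had limma fold changes below 0, and 0 passed. At an unadjusted p under 0.05 there were 8 by limma, 8 by voom and 0 by edgeR and DESeq2. The part of muscle content in the values of Rpl3l was not tested.

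**Figure D4:**
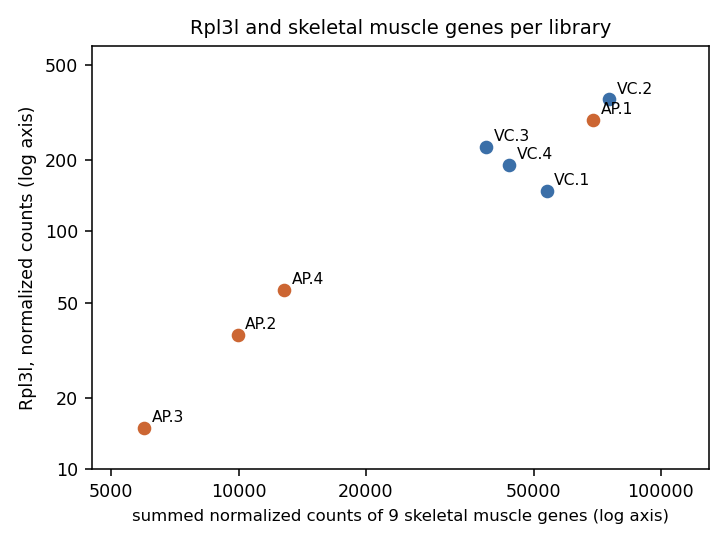
Normalized counts of Rpl3l against the summed normalized counts of 9 skeletal muscle genes in each library, both on log axes; points are libraries. AP.2, AP.3 and AP.4 lie at the low end of both axes, and AP.1 lies among the VC libraries.

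Rpl39l, a paralog of Rpl39 best known from testis, had 346, 151, 186 and 195 normalized counts in the VC libraries against 154, 109, 75.7 and 119 in the AP libraries. VC.1 was highest and AP.3 lowest, and AP.1 overlapped with VC.2. Its log2 fold change was -0.90 with an SE of 0.29 and an adjusted p of 0.0670; of 23 alternatives, DESeq2 (adjusted p = 0.0261) and leaving out AP.1 (0.0474) passed, and the highest was 0.915. Rpl22l1, the paralog of Rpl22, had 2146.5, 1485, 1232 and 1361 normalized counts in the VC libraries against 894, 843, 964 and 1264 in the AP libraries. AP.4 alone overlapped with the VC range. Its log2 fold change was -0.63 with an SE of 0.20 and an adjusted p of 0.0620, close to the median of the standard genes, and DESeq2 called it lower (adjusted p = 0.0301).

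Rpl7l1, an Rpl7 paralog that works in the assembly of the large subunit, had 668, 746, 657 and 652.5 normalized counts in the VC libraries against 567, 649, 596 and 695 in the AP libraries. AP.1 to AP.3 lay below every VC library, AP.4 lay within the VC range, and VC.1 was not apart from the rest. Its mean was 681 ± 44.1 in VC and 627 ± 56.7 in AP, a log2 fold change of -0.12 with an SE of 0.14 and an adjusted p of 0.580. Rps27l, the p53-responsive paralog of Rps27, had 1974, 1243, 1162 and 1029 normalized counts in the VC libraries against 1155, 1179.7, 943 and 1471 in the AP libraries. Except for VC.1, its VC libraries lay within the AP range, and the log2 fold change was -0.16 with an SE of 0.22 and an adjusted p of 0.652. Scaling by total counts gave Rpl7l1 and Rps27l fold changes of 0.75 and 0.71, each below the 0.90 of all genes.

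Rps19bp1 (ENSMUSG00000051518, chr15:80260615-80264315) differed from the standard genes in its order within VC. It had 176, 248, 232 and 255 normalized counts in the VC libraries against 112, 134, 102 and 135 in the AP libraries. VC.1 was the lowest VC library, not the highest, and all VC libraries were above all AP libraries. The mean fell from 228 ± 35.7 to 121 ± 16.6, a log2 fold change of -0.91 with an SE of 0.20 and an adjusted p of 0.0215. Without VC.1 the fold change was -1.02 (adjusted p = 0.0245), and over 23 alternatives the adjusted p ranged from 0.000350 to 0.901 and was under 0.05 in 19. Its binding partner Rps19 had a log2 fold change of -0.65 with an SE of 0.25 and an adjusted p of 0.107 by limma and 0.0321 by DESeq2; whether the genes of this pair changed differently was not tested.

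The remaining 3 genes had few reads. Rpl36al had 0, 1, 6 and 1 reads in the VC libraries and 2, 7, 13 and 5 in the AP libraries, at or under the floor in 3 VC libraries and 1 AP library. Rps23rg1 had 3, 1, 0 and 3 reads in VC and 3, 6, 4 and 6 in AP. Rps27rt had 9, 6, 17 and 4 reads in VC and 12, 46, 31 and 19 in AP, and 91.1% of the 50-base words of its transcript occur in other genes, so its reads cannot be assigned to it with certainty. Their log2 fold changes were 0.65, 0.25 and 0.19 with standard errors of 0.84, 0.82 and 0.52, and a difference was not detectable at this depth. Among all members, 23 share over 50% of their 50-base words with other genes. Their median fold change was -0.55, against -0.52 in the other 63.

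Within a library, the ratio of a paralog to its partner hardly depends on scaling. For 7 pairs, the difference of the mean log2 ratio between AP and VC was tested by a two-sided exact permutation test over the 70 assignments, whose smallest p is 0.0286. No pair had a p under 0.05 before adjustment. After adjustment over the 7 pairs, a pair alone could not have passed with 4 libraries in each group. The smallest p was that of Rpl39l to Rpl39. The log2 ratio was -4.40, -4.70, -4.52 and -4.31 in the VC libraries and -4.55, -5.17, -5.59 and -5.43 in the AP libraries. AP.1 lay within the VC range and the other AP libraries lay below it. The means of AP and VC differed by -0.70 (exact permutation p = 0.0571, adjusted over the 7 pairs 0.30), and Rpl39l had 4.51% of the normalized counts of Rpl39 in VC and 2.78% in AP. For Rps27l to Rps27 the difference was 0.24 (exact permutation p = 0.0857, adjusted 0.30), from 22.4% to 27.0%. The other differences were -1.59 for Rpl3l to Rpl3, 0.13 for Rpl7l1 to Rpl7, -0.04 for Rpl22l1 to Rpl22, 1.16 for Rpl36al to Rpl36a and 0.59 for Rps27rt to Rps27, with exact permutation p-values of 0.171, 0.60, 0.686, 0.257 and 0.171. Single libraries moved Rpl3l to Rpl3 between -2.41 (without AP.1) and -0.98 (without AP.3). Rpl36al to Rpl36a moved between 0.41 (without VC.1) and 1.78 (without VC.3). Rps27rt to Rps27 moved between 0.37 (without AP.2) and 0.89 (without VC.3).

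Fau encodes a ribosomal protein fused to a ubiquitin-like protein and falls outside the naming rule. Fau had 12475, 7141, 7170.0 and 7674 normalized counts in the VC libraries against 5357, 4461, 4352 and 5987 in the AP libraries, with no overlap. Its log2 fold change of -0.74 did not pass by limma (adjusted p = 0.0598); DESeq2 and voom called it lower and edgeR did not. Of 18 translation factors and ribosome-associated genes with TOP messenger RNAs, 4 fell by limma (22.2%), where 4% of all genes were lower. These were Eef1d (-0.61), Eif3f (-0.61), Eif3k (-0.70) and Nap1l1 (-0.61), with adjusted p-values of 0.0321, 0.0363, 0.0406 and 0.0452. Their list had a median of -0.41 with 17 of 18 below 0. Without VC.1, 0 passed by limma, where 1.63% of all genes were lower. In that fit 7 had an unadjusted p under 0.05, as had 4349 of all 15964 genes in either direction. After removal of the trend on the longest transcript, Eef1d and Nap1l1 still passed, Eif3f and Eif3k did not (adjusted p = 0.0607 and 0.0914), and Naca became lower (adjusted p = 0.0260). In that fit 3.33% of all genes were lower. After removal of the trend on the median length, 2 of the list passed, Eef1d and Naca, where 3.87% of all genes were lower.

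Lists of genes that build or regulate ribosomes had medians closer to that of all genes. Of 37 nucleolar and assembly factors (median -0.07), 3 fell by limma (8.11%), where 4% of all genes were lower. They were Bysl, Nop56 and Gar1 (-0.80, -0.76 and -0.67, adjusted p = 0.0175, 0.0257 and 0.0451). In the other direction 1 gene, Mdn1, rose (1.25, adjusted p = 0.0363), where 6.33% of all genes were higher. Without VC.1, Bysl alone of the list passed, where 1.63% of all genes were lower. Among 7 chaperones of single ribosomal proteins 0 passed by limma (median -0.17). An unadjusted p under 0.05 was found in 4, where 30.3% of all genes had one. For the chaperones edgeR and voom gave 0 and DESeq2 2, both lower, where DESeq2 called 8.53% of all genes lower. Of 10 genes of RNA polymerase I, which makes ribosomal RNA, 1 rose by limma, where 6.33% of all genes were higher. It was Polr1a (0.91, adjusted p = 0.0496, and 0.106 without VC.1), and the list median was 0.12. Of 18 mTOR and Myc regulators, 1 rose by limma, again where 6.33% of all genes were higher. It was Mtor (1.13, adjusted p = 0.0130, and 0.0305 without VC.1), and the list median was 0.02. The median longest transcript of these lists was 2804, 1974, 3528 and 4790.5 nt, against 1100 nt in the members. With the trend on the longest transcript removed, Mdn1, Polr1a and Mtor had 0.65, 0.43 and 0.68 and did not pass (adjusted p = 0.162, 0.227 and 0.0665), nor did Gar1 (-0.41, 0.190). In that fit Bysl (-0.93, 0.0160) and Nop56 (-0.86, 0.0211) still passed, and Ncl (-0.76, 0.0394) and Tsc2 (-0.80, 0.0134) became lower, where 3.33% of all genes were lower. With the trend on the median length removed, Mdn1, Polr1a and Mtor (1.33, 0.98 and 1.08, adjusted p = 0.0356, 0.0469 and 0.0159) passed, as did Bysl and Nop56, and Gar1, Ncl and Tsc2 did not. In this last fit 3.87% of all genes were lower, and 718 of 15964 were higher.

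The start of the TOP was looked for in RefSeq promoters (GRCm38.p6), since these genes are grouped by it. The letters searched were a C at the annotated start followed by 4 letters that are each C or T, on the strand of the gene and at no other position. For 66 of the 86 members a promoter was found by symbol, 78 promoters in all, and 14 of them (17.9%) held these letters, against 823 of all 32851 promoters (2.51%). Annotated starts are often a few bases from the used start, so no match says only that the letters are not at that position. Of the members that were lower in AP, 4 of 7 with a promoter held them, and of the others 10 of 59. Counted in the same way, by gene at any start, 813 of 27025 genes with a promoter (3.01%) held them. Whether these letters and the fold changes go together was not tested. The sequences of the named members with these letters are shown so that called and other members can be read together, from 20 bases before the start to 10 from it, with the run of C and T from the start in capitals. Rplp2, Rpl38, Rpl28 and Rps21 fell, while Rps15a, Rps27 and Rps27rt did not pass the test.
Rplp2 (chr7:141447631-141447660, plus strand): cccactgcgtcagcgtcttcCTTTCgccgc
Rpl38 (chr11:114668560-114668589, plus strand): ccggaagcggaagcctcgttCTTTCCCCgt
Rpl28 (chr7:4792945-4792974, plus strand): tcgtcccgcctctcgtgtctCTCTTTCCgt
Rps21 (chr2:180257359-180257388, plus strand): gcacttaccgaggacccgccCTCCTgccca
Rps15a (chr7:118116138-118116167, minus strand): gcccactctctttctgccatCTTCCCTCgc
Rps27 (chr3:90213639-90213668, minus strand): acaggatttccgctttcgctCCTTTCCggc
Rps27rt (chr9:114982730-114982759, minus strand): ggttaagaacttatcccttgCTTTCCggcg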

How the data were processed

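The authors aligned reads to mm10 with STAR, counted them per gene (featureCounts in their methods, HTSeq in their list of tools) and scaled them with DESeq2. The deposited signal values are normalized counts, read counts divided by 1 size factor per library; 100% of the 150160 values were whole reads within 0.1 read, so reads were recovered. Raw reads and the authors' 6 comparison columns (baseMean, log2 fold change, its standard error, statistic, p and adjusted p) were not used. Depth was 6454563 to 11190113 reads per library. Genes reaching 3 normalized counts in 4 or more libraries were tested on log2(value + 1) with limma 3.58.1 (trend) in R 4.3.3, all 8 libraries, group as the only term, Benjamini-Hochberg over 15964 genes. Paralog ratios were compared by exact permutation tests. Alternatives were total-count, non-mitochondrial, upper-quartile and TMM scaling, pseudocounts of 0.5 and 5, other filters, edgeR 4.0.16, DESeq2 1.42.0, voom, reads drawn down, transcript length trends removed (loess, span 0.3), the study's thresholds, members without paralogs or without shared sequence, and each library left out. The trend on the median length, removal of the trend on the longest length together with VC.1, the ribosomal protein scaling, the study's thresholds on DESeq2 and the share without mitochondrially encoded genes with each library left out were added after the data were seen. Steps were tested on simulated data. Named members were those past the threshold, listed paralogs with partners, the 5 highest and 5 lowest fold changes among the rest with a mean of at least 50, the 3 most abundant of each subunit, and members over 3 scaled median absolute deviations from their subunit's median. Rps19 was named after its values were seen, and 2 called members are not described. Members and lists were chosen with earlier results of these data known. The columns carry group numbers that no label ties to single mice, so no pairing was possible.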

Additional observations from a re-analysis of the deposited data

Results flagged for a closer look

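In 25 of 86 groups of 4 libraries, the gap between an extreme library and its nearest neighbour exceeded Dixon's 95% critical value, as a share of the group's range. Chance flags about 1 in 20 groups, and the members' values are not independent of one another, so a single high library is counted many times. In VC, VC.1 was far above the others in the share of reads without mitochondrially encoded genes (17.3%) and in the summed normalized counts of the 77 standard genes (1038260), of the large subunit (573254) and of the small subunit (465006). VC.1 was also far above the others in 13 named members. For the large subunit its normalized counts were 7484 for Rpl22, 12155 for Rpl28, 5477 for Rpl36a, 9703 for Rpl38, 7294 for Rpl39, 46395 for Rpl41, 12017 for Rpl7, 35906.5 for Rplp1 and 18023 for Rplp2. For the small subunit they were 17870.5 for Rps15, 24228 for Rps24, 9303 for Rps28 and 13466.5 for Rps7. VC.2 stood above the other VC libraries in Rpl7l1 (746 normalized counts) and in the log2 ratio of Rps27l to Rps27 (-1.88). In AP, AP.4 was far above the others in the share of reads without mitochondrially encoded genes (10.3%), in the summed normalized counts of the standard genes (584503) and of the large subunit (327251), and in Rpl22 (3977) and Rplp0 (17689). AP.1 was far above the other AP libraries in Rpl3l (294). What set these libraries apart was not tested.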

How the results depend on the processing

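The 31 named members gave 710 values under the alternatives: 616 kept their direction and their side of the threshold, 37 kept the direction and lost the call, 20 gained a call and 37 changed sign, 19 of these with total counts. The count of members lower in AP, 9, became 0 with total counts, 17 with upper-quartile factors, 36 with DESeq2, 17 with voom, 3 with the trend on the longest transcript removed, 2 with VC.1 also left out, 7 with the trend on the median length removed, and 18 by limma and 32 by DESeq2 with the study's thresholds; leaving out each library gave 0 to 8. The count of members higher became 21 with total counts and was 0 with each library left out (0 to 0). The medians of large and small subunit members changed sign with total counts (0.32 and 0.36), were -0.22 and -0.17 without VC.1 and the length trend, and ranged from -0.63 to -0.38 and from -0.60 to -0.30 with each library left out. The log2 ratio of the members' mean share of reads (AP over VC) was 0.31 of all reads, from 0.22 to 0.41 with each library left out, and -0.53 without mitochondrially encoded genes, a change of denominator, from -0.62 to -0.35 with each library left out. With total counts, fold changes turned positive in Rpl22 (0.28), Rpl22l1 (0.24), Rpl3 (0.51), Rpl36a (0.37), Rpl39 (0.67), Rpl41 (0.040), Rpl7 (0.62), Rpl7l1 (0.75), Rplp0 (0.55), Rplp1 (0.17), Rps12 (0.27), Rps15a (0.75), Rps2 (0.29), Rps24 (0.038), Rps27 (0.47), Rps27l (0.71), Rps28 (0.016), Rps7 (0.71) and Rpsa (0.12), where the median of all genes is 0.90. With the trend on the longest transcript removed, Rpl39 (0.047), Rps27l (0.086) and Rps7 (0.11) changed sign, and with VC.1 also left out Rpl39 (0.17), Rpl7 (0.060), Rps27 (0.0002), Rps27l (0.20) and Rps7 (0.25) did. With each library left out, fold changes ranged from -0.32 to 0.010 in Rpl39, from -0.25 to 0.12 in Rps15a, from -0.27 to 0.039 in Rps27l and from -0.26 to 0.051 in Rps7, positive without VC.1. Rps23rg1 became -0.026 with edgeR and -0.043 with DESeq2 and ranged from -0.31 to 0.60 (below 0 without VC.3). Rps27rt became -0.036 with reads drawn down and ranged from -0.048 to 0.47 (below 0 without VC.4 or AP.2). The paralog ratios ranged from -0.025 to 0.22 for Rpl7l1 to Rpl7 (below 0 without VC.1) and from -0.097 to 0.050 for Rpl22l1 to Rpl22 (above 0 without VC.2 or AP.2). The cause of these changes was not tested. Group, depth, mitochondrial share and epidermal markers differ together between AP and VC and cannot be told apart with 4 libraries in each group. Total-count scaling includes the mitochondrially encoded reads, 48.4% of reads in VC and 8.66% in AP. Depth limits Rpl36al, Rps23rg1 and Rps27rt to a few reads, and shared sequence limits Rpl13a and Rps27rt. Bulk values do not say which cells held the transcripts, and transcript levels do not measure ribosomes or translation.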
